A study of Mus musculus with 24 samples.

Results

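The Cyp3a genes of the mouse encode cytochrome P450 enzymes of the endoplasmic reticulum. The 8 genes described here, Cyp3a11, Cyp3a13, Cyp3a16, Cyp3a25, Cyp3a41a, Cyp3a41b, Cyp3a44 and Cyp3a59, were taken by gene symbol from a count table of 49315 genes. They were also summed, because some of them are nearly identical. All 8 passed the filter on low counts and are among the 17216 genes tested. Of the other Cyp3a symbols in the table, Cyp3a57 reached at most 1.10 TPM and 24 counts in a library and was not tested, and the pseudogene Cyp3a63-ps is described beside its neighbours.

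RNA was sequenced from mouse liver in 4 groups of 6 libraries, numbered here within each group as names only. CCA.Mdr2-/- and CCA.Wild-type are livers that bore cholangiocarcinoma, a bile duct cancer, after integration of AKT and YAP1 by a transposon. Ctrl.Mdr2-/- and Ctrl.Wild-type are livers without tumour that received an empty construct. Mdr2 is Abcb4, the transporter that moves phosphatidylcholine into bile, and its loss leads to chronic bile duct injury. The labels give no age, sex, interval after delivery, promoter of the transgenes or share of tumour in a piece of tissue. A tumour-bearing piece holds both tumour and remaining liver, so fewer hepatocytes and less Cyp3a RNA per hepatocyte cannot be told apart. The labels speak of individual tissues without saying whether each is from its own animal, so each p-value reflects how far these samples spread, which may be technical.

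CYP3A enzymes oxidise a wide range of drugs, steroids and bile acids, taking electrons from the reductase Por and from cytochrome b5. Their genes are induced through PXR (Nr1i2), a nuclear receptor for foreign compounds and bile acids, and through CAR (Nr1i3). In mouse liver several members are also set by sex and age. Cyp3a41a, Cyp3a41b and Cyp3a44 are known as female-predominant genes under the pattern of growth hormone release, Cyp3a16 is known from fetal and newborn liver, and Cyp3a11 is the major adult form in both sexes. Cyp3a13 is expressed in intestine as well as in liver, and Cyp3a25 is another adult liver form. No role is given here for Cyp3a59.

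On chromosome 5 the genes stand in the order Cyp3a57, Cyp3a16, Cyp3a41b, Cyp3a63-ps, Cyp3a41a, Cyp3a44, Cyp3a11, Cyp3a25, Cyp3a59, and Cyp3a13 lies apart on the same chromosome. The 120 bases before the start are printed for Cyp3a11 and for the 4 genes that set Ctrl.Wild-type livers apart, because these genes are easily mistaken for one another. They come from RefSeq promoters on GRCm38.p6, which is not the mm39 build of the counts, and all of them lie on the minus strand. Lower case marks bases identical to Cyp3a41a in a pairwise alignment, and capitals mark the others. The coordinates are chr5:145720137-145720256 for Cyp3a41a, chr5:145584731-145584850 for Cyp3a41b, chr5:145805875-145805994 for Cyp3a44, chr5:145469724-145469843 for Cyp3a16 and chr5:145879855-145879974 for Cyp3a11.
Cyp3a41a: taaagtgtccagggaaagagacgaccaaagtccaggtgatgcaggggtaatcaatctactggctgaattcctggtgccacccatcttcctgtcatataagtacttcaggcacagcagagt
Cyp3a41b: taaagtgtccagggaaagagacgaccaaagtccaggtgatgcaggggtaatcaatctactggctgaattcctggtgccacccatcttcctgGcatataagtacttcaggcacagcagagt
Cyp3a44: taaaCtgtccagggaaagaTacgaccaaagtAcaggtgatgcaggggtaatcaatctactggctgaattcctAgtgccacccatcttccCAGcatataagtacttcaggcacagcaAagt
Cyp3a16: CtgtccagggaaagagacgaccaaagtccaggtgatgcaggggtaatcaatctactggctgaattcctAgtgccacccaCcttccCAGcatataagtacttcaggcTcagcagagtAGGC
Cyp3a11: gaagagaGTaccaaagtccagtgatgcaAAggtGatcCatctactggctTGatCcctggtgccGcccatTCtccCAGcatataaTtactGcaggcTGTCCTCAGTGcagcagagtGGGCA
Cyp3a41b has 1 base in capitals, Cyp3a44 has 8, Cyp3a16 has 11 and Cyp3a11 has 33. Over 250 bases, the Cyp3a41a and Cyp3a41b promoters were identical at 249. The promoters of Cyp3a16, Cyp3a41a, Cyp3a41b and Cyp3a44 were otherwise 92.4 to 94.8% identical to each other and 76.4 to 80% identical to that of Cyp3a11.

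Cyp3a25 and Cyp3a59 form a second similar pair, next to each other on opposite strands, with promoters 95.2% identical. They are printed because their levels moved together through the groups. Capitals in Cyp3a59 mark the 9 bases not identical to Cyp3a25. The coordinates are chr5:146009619-146009738 on the minus strand for Cyp3a25 and chr5:146079138-146079257 on the plus strand for Cyp3a59, in GRCm38.p6.
Cyp3a25: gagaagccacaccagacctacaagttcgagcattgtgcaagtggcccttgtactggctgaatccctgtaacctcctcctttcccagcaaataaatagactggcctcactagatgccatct
Cyp3a59: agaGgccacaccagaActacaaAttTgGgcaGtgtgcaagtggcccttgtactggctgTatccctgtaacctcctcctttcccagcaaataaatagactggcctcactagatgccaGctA
The Cyp3a13 promoter was 54.8 to 60.8% identical to those of the other members. On either strand of the 250 bases, the nuclear receptor motif AGTTCA was found in Cyp3a41a, Cyp3a41b and Cyp3a11, against 11.9% of 27025 promoters. AGGTCA was found in Cyp3a44, Cyp3a11, Cyp3a25 and Cyp3a59, against 13.84% of promoters. TATAAA was found in Cyp3a16, Cyp3a41a, Cyp3a41b, Cyp3a44 and Cyp3a11, against 12.97% of promoters. None of the 8 windows held TTCNNNGAA, the STAT motif, which 7.179% of promoters hold. The direct repeat spaced by 3 and the everted repeat spaced by 6, which 0.0555% and 0.037% of promoters hold, were not found either.

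How far the reads can tell the genes apart differs between them. The longest open reading frames of Cyp3a41a and Cyp3a41b were identical at 1513 of 1515 bases, and 82.9% of all 150-base windows of the Cyp3a41a transcript, a read's length, were also in Cyp3a41b. Their 2 counts are therefore uncertain, and their sum is given beside them. Cyp3a25 and Cyp3a59 reading frames were 97.5% identical, but only about 0.702% of the Cyp3a25 windows were shared. Cyp3a11, Cyp3a13, Cyp3a16 and Cyp3a44 shared no 150-base window with another Cyp3a gene. Whether the counting used strand is not stated, so reads of antisense transcripts could not be told apart from those of the genes.

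Libraries held 20976459 to 30288385 counts, so that 1 CPM (a count scaled to library size by TMM) stood for 16.4 to 34.2 counts. Abcb4 matched every genotype label, with at most 59.3 CPM in any Mdr2-/- library and at least 165 CPM in any wild-type library. Xist was at 533 CPM or more and no Y-linked gene above 0.809 CPM in any of the 24 libraries. CCA.Wild-type replicate 6 and CCA.Mdr2-/- replicate 1 stood apart from their groups on the first principal components of all genes. Ctrl.Wild-type replicate 6 lay nearer its group there but apart from it for 4 of the Cyp3a genes, and results are given below with and without these 3 libraries. CCA.Wild-type replicate 3 is not among them. It lay beside replicate 6 on the first component (25.7 and 24.3, the rest of the group -24.1 to 0.769) but not on the second (26.9 and -35.0). Mitochondrial genes took 3.82, 4.34, 5.45 and 7.57% of counts on average in CCA.Mdr2-/-, Ctrl.Mdr2-/-, CCA.Wild-type and Ctrl.Wild-type livers, and the part of this share in the results below was not tested.

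Cyp3a11 dominated the family in every group and Cyp3a41b was its lowest member. On the TPM scale, which corrects for length, Cyp3a11 had a median of 2686 TPM in CCA.Mdr2-/-, 5551 TPM in Ctrl.Mdr2-/-, 2861 TPM in CCA.Wild-type and 3729 TPM in Ctrl.Wild-type livers. Cyp3a25 came next, with medians of 528, 502, 799 and 826 TPM in the same order of groups. Cyp3a59 had medians of 50.6, 66.6, 87.1 and 107 TPM, and Cyp3a13 of 33.7, 41.05, 29.6 and 31.9 TPM. The order of the remaining members depended on the group: in Ctrl.Wild-type livers Cyp3a44 (median 266 TPM), Cyp3a16 (184 TPM) and Cyp3a41a (142 TPM) stood above Cyp3a59, and in the other 3 groups all 3 stood below it. Across Ctrl.Wild-type livers these 3 neighbours ran from 39.8 to 978 TPM for Cyp3a44, from 6.48 to 608 TPM for Cyp3a16 and from 15.6 to 272 TPM for Cyp3a41a. Within each of these libraries Cyp3a44 was the highest of the 3, and the order of Cyp3a16 and Cyp3a41a differed between libraries. Cyp3a41b had medians of 0.913, 0.348, 0.313 and 9.12 TPM, and held 2.15 to 10.5% of the reads counted for the Cyp3a41 pair in any library.

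**Figure D1:**
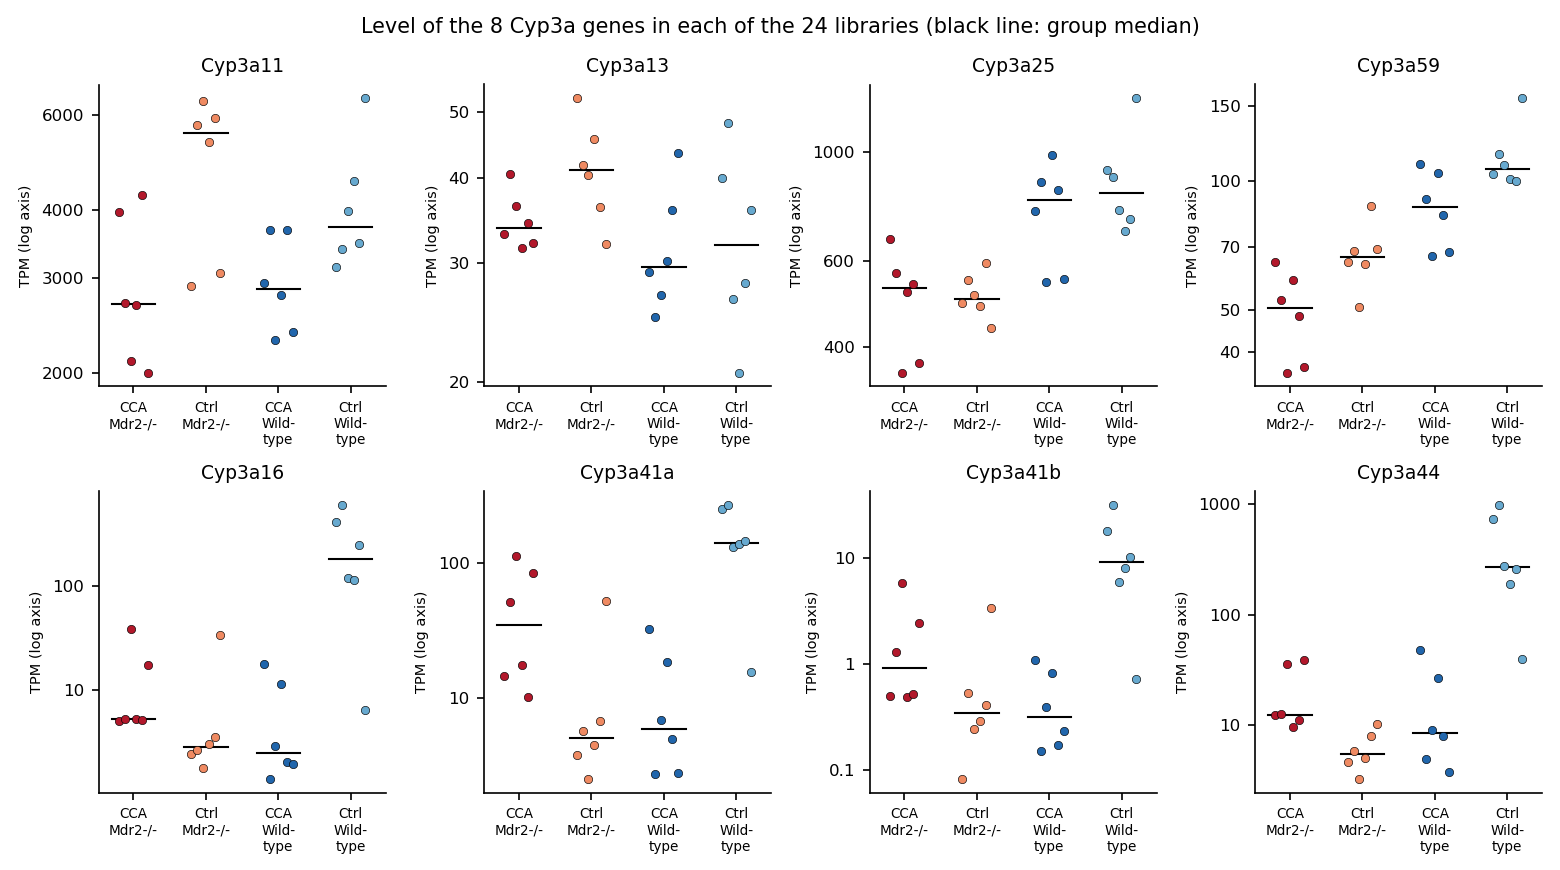
Level of each of the 8 Cyp3a genes in TPM on a log axis, 1 point per library and a bar at the group median, for the 4 groups of 6 libraries. Cyp3a16, Cyp3a41a, Cyp3a41b and Cyp3a44 were high in Ctrl.Wild-type livers except in replicate 6, and Cyp3a11, Cyp3a13, Cyp3a25 and Cyp3a59 moved within a much narrower range.

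The share of 4 members in the family's RNA was higher in Ctrl.Wild-type livers than in the other groups on average. Cyp3a16, Cyp3a41a, Cyp3a41b and Cyp3a44 together made up 2.83 ± 2.80% of the summed Cyp3a TPM in CCA.Mdr2-/-, 0.643 ± 1.01% in Ctrl.Mdr2-/-, 0.906 ± 0.916% in CCA.Wild-type and 14.4 ± 11% in Ctrl.Wild-type livers (SD, n = 6 each). Single libraries carried much of this: the mean was 0.230 ± 0.0759% in Ctrl.Mdr2-/- livers without replicate 6, at 2.71%, and 0.582 ± 0.512% in CCA.Wild-type livers without replicate 1, at 2.52% (SD, n = 5 each). Within Ctrl.Wild-type livers this share ran from 0.785% in replicate 6 to 29.8%. Cyp3a11 made up 80.7 ± 3.76%, 87.4 ± 3.85%, 76.4 ± 3.41% and 68.6 ± 11.4% in the same order of groups. These shares are descriptions, and no test was run on them.

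**Figure D2:**
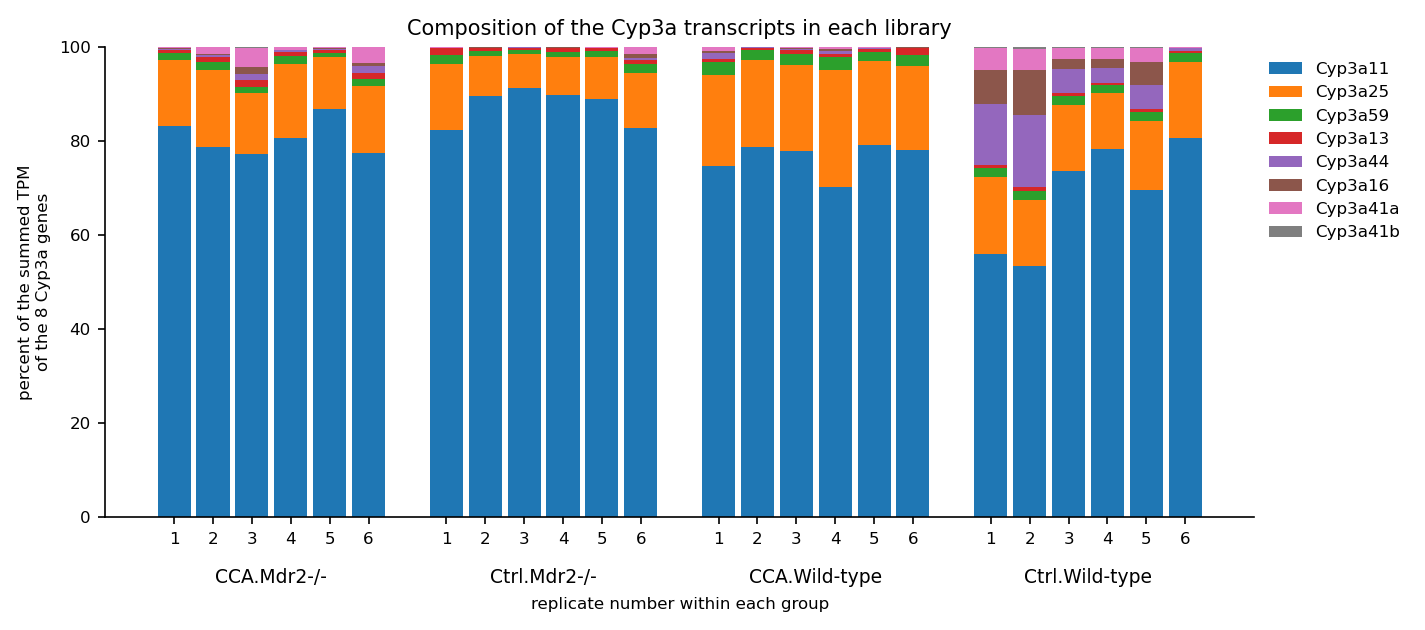
Share of each Cyp3a gene in the summed TPM of the 8 genes, in percent, as stacked bars from 0 for each of the 24 libraries. Cyp3a11 took the largest share, and the joint share of Cyp3a16, Cyp3a41a, Cyp3a41b and Cyp3a44 reached 29.8% in Ctrl.Wild-type livers and stayed at or below 7.09% in the other groups.

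The first comparison named by the study sets CCA.Mdr2-/- against Ctrl.Mdr2-/- livers. Cyp3a11 was the 1 member that fell there by edgeR's quasi-likelihood test. It had 3690 CPM at the lowest, 5453 at the median and 10746 at the highest in CCA.Mdr2-/- livers, against 6013, 12412 and 14915 CPM in Ctrl.Mdr2-/- livers. Most tumour-bearing libraries lay below most controls, and the groups overlapped. The log2 fold change was -0.83 ± 0.27 (SE) with an adjusted p of 0.021. Thus 1 of 8 members fell and 0 rose, where 34.8% of all tested genes passed, 17% lower and 17.9% higher. Without CCA.Mdr2-/- replicate 6 the Cyp3a11 value was -0.71 with an adjusted p of 0.0595, and without the 3 libraries named above it was -1.07 with an adjusted p of 0.00218.

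The other 7 members did not pass in the Mdr2-/- comparison. Cyp3a41a averaged 39.7 ± 34.1 CPM in CCA.Mdr2-/- and 10.6 ± 15.4 CPM in Ctrl.Mdr2-/- livers (log2 1.91 ± 0.85, adjusted p = 0.081). Cyp3a44 averaged 15.8 ± 9.76 CPM in CCA.Mdr2-/- and 5.27 ± 1.78 CPM in Ctrl.Mdr2-/- livers (log2 1.58 ± 0.69, adjusted p = 0.075). Both passed when counts were scaled by total library size, Cyp3a41a at 2.17 (adjusted p = 0.0486) and Cyp3a44 at 1.85 (adjusted p = 0.0378), and Cyp3a41a also passed on log2(TPM + 1) at 2.11 (adjusted p = 0.0435). Under total library size 2 members thus rose and 1, Cyp3a11, fell. With only the groups compared in the edgeR fit, Cyp3a44 rose by 1.56 ± 0.35 (adjusted p = 0.00349). It ran from 7.65 to 28.7 CPM in CCA.Mdr2-/- and from 2.97 to 7.80 CPM in Ctrl.Mdr2-/- livers. Single libraries moved the calls as well. Without Ctrl.Mdr2-/- replicate 6, whose 41.8 CPM of Cyp3a41a overlapped the tumour-bearing range, the Cyp3a41a change was 3.20 with an adjusted p of 0.0091. Without the 3 libraries that stood apart, Cyp3a44 was at 1.62 with an adjusted p of 0.0498 and Cyp3a59 at -0.74 with an adjusted p of 0.00329, against -0.52 ± 0.21 and 0.0608 with all libraries, so that 1 member rose and 2 fell. Without Ctrl.Wild-type replicate 6 alone, Cyp3a44 was at 1.57 with an adjusted p of 0.0468. Cyp3a59 passed as the second member that fell without CCA.Mdr2-/- replicate 1 (adjusted p = 0.0107), CCA.Wild-type replicate 1 (adjusted p = 0.0453) or CCA.Wild-type replicate 6 (adjusted p = 0.0447). Cyp3a13 (-0.38 ± 0.20, adjusted p = 0.133), Cyp3a25 (-0.11 ± 0.23, adjusted p = 0.73), Cyp3a16 (0.70 ± 0.92, adjusted p = 0.57) and Cyp3a41b (1.12 ± 0.84, adjusted p = 0.295) did not pass.

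In wild-type livers, the second comparison the study states, 6 members fell in tumour-bearing tissue and 0 rose, where 28.4% of all tested genes passed, 11.5% lower and 16.9% higher. Cyp3a16 had 1.34 CPM at the lowest, 1.89 at the median and 18.1 at the highest in CCA.Wild-type livers, against 6.54, 177 and 697 CPM in Ctrl.Wild-type livers. Of the control libraries, 5 lay above every tumour-bearing one, and replicate 6 lay within the tumour-bearing range. The log2 fold change of -5.58 ± 1.09 (adjusted p = 0.000638) made Cyp3a16 47.8-fold lower. Without the 3 libraries it was -5.63 with an adjusted p of 0.000948.

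The 3 female-predominant members fell with Cyp3a16. Cyp3a44 had 3.21 CPM at the lowest, 7.45 at the median and 55.0 at the highest in CCA.Wild-type livers, against 45.5, 298 and 1271 CPM in Ctrl.Wild-type livers, and was 29.4-fold lower (log2 -4.88 ± 0.77, adjusted p = 6.62e-05). The groups overlapped by the lowest control, replicate 6, alone. Cyp3a41a had 2.45, 5.39 and 39.1 CPM in CCA.Wild-type livers, against 18.8, 166 and 371 CPM in Ctrl.Wild-type livers, at the lowest, median and highest library, and was 16.5-fold lower (log2 -4.04 ± 0.92, adjusted p = 0.00238). Cyp3a41b had 0.167, 0.273 and 1.32 CPM in CCA.Wild-type livers, against 0.863, 10.46 and 43.4 CPM in Ctrl.Wild-type livers, at the lowest, median and highest library (log2 -5.01 ± 0.91, adjusted p = 0.000269). Its reads can come from Cyp3a41a, and the sum of the pair changed by -4.09 ± 0.92 on the log2 scale, close to the value of Cyp3a41a. Without the 3 libraries that stood apart the changes were -4.90 for Cyp3a44, -4.07 for Cyp3a41a and -5.10 for Cyp3a41b, and all 3 passed.

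Of the abundant members, Cyp3a11 and Cyp3a59 passed in wild-type livers, with smaller fold changes. Cyp3a11 had 4930 CPM at the lowest, 7961 at the median and 10370.0 at the highest in CCA.Wild-type livers, against 9414, 11883 and 19110.5 CPM in Ctrl.Wild-type livers, and the groups overlapped. Its log2 fold change was -0.76 ± 0.27 (adjusted p = 0.0364). Cyp3a59 averaged 88.0 ± 28.4 CPM in CCA.Wild-type and 138 ± 26.8 CPM in Ctrl.Wild-type livers (log2 -0.65 ± 0.21, adjusted p = 0.0238). Neither call held without the 3 libraries, where Cyp3a11 was at -0.52 (adjusted p = 0.125) and Cyp3a59 at -0.47 (adjusted p = 0.0607), nor without Ctrl.Wild-type replicate 6 alone (adjusted p = 0.107 for Cyp3a11 and 0.0636 for Cyp3a59). Of 36 alternative settings, 11 lost the Cyp3a11 call and 7 the Cyp3a59 call. Both were also lost without CCA.Wild-type replicate 3 (adjusted p = 0.0961 and 0.0727) or replicate 6 (0.0728 and 0.0531), and on either log2 TPM scale. Cyp3a25 (-0.49 ± 0.23, adjusted p = 0.113) and Cyp3a13 (-0.40 ± 0.20, adjusted p = 0.131) did not pass.

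**Figure D3:**
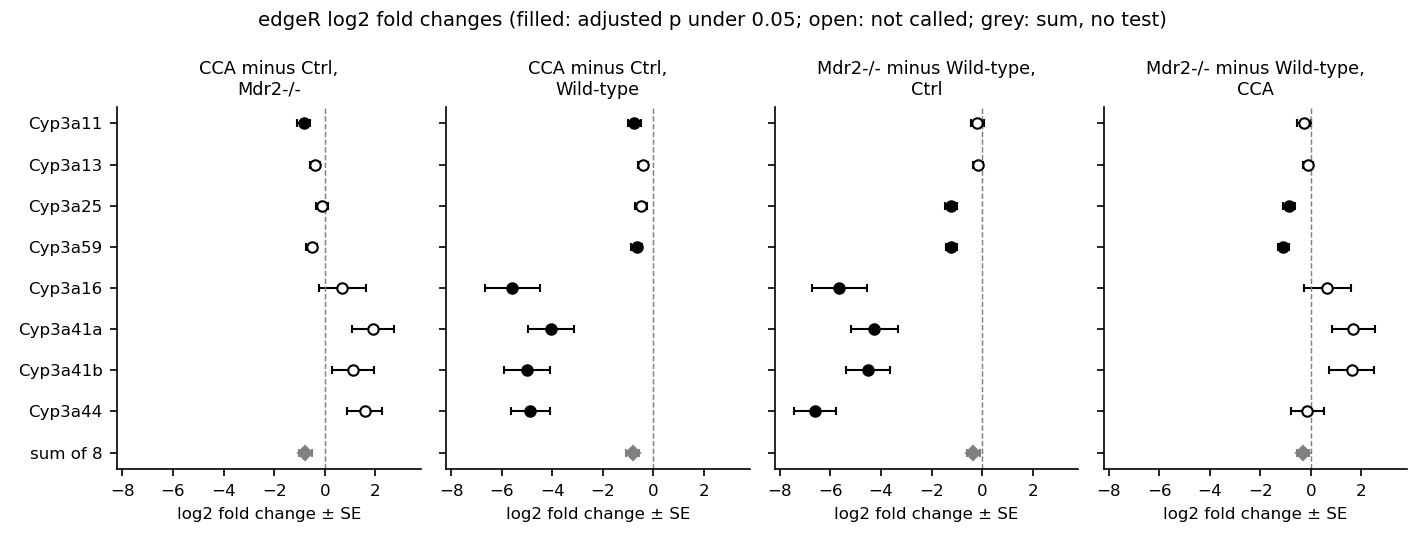
Log2 fold change of each Cyp3a gene in the 4 group comparisons, with bars of 1 standard error from edgeR, filled points for an adjusted p below 0.05, and grey diamonds for the sum of the 8 genes, which was not tested. Cyp3a16, Cyp3a41a, Cyp3a41b and Cyp3a44 stood between -6.60 and -4.04 in the comparisons against Ctrl.Wild-type livers and between -0.14 and 1.91 in the others.

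The tumour-bearing and control livers differed by another amount in each genotype for the same 4 genes. The difference of the effects, Mdr2-/- minus wild-type, was 6.28 ± 1.39 for Cyp3a16 (adjusted p = 0.00338), 5.95 ± 1.24 for Cyp3a41a (adjusted p = 0.0023), 6.14 ± 1.22 for Cyp3a41b (adjusted p = 0.00145) and 6.46 ± 1.02 for Cyp3a44 (adjusted p = 0.0002) on the log2 scale. These 4 of 8 members had a higher difference and 0 a lower one, where 25.3% of all tested genes passed, 11.9% higher and 13.4% lower. The difference uses the same Ctrl.Wild-type libraries as the wild-type comparison and adds no separate support. In Ctrl.Mdr2-/- livers the medians of these genes, in the order above, were already 2.32, 4.95, 0.309 and 5.11 CPM. Their median counts there were 67, 142.5, 9 and 146.5. Whether these low levels limited a fall with tumour was not tested. The difference was -0.07 ± 0.38 for Cyp3a11, 0.02 ± 0.28 for Cyp3a13, 0.38 ± 0.32 for Cyp3a25 and 0.14 ± 0.30 for Cyp3a59, and none of those passed.

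Between control livers, 6 members were lower and 0 higher in Mdr2-/- than in wild-type mice, where 50.5% of all tested genes passed, 24.3% lower and 26.2% higher. This comparison shares the Ctrl.Wild-type libraries with the one above, and its values stand beside those without adding separate support. Cyp3a44 had 2.97 CPM at the lowest, 5.11 at the median and 7.80 at the highest in Ctrl.Mdr2-/- livers, against 45.5, 298 and 1271 CPM in Ctrl.Wild-type livers. No libraries overlapped, and Cyp3a44 was 97.1-fold lower (log2 -6.60 ± 0.84, adjusted p = 1.97e-06). Cyp3a16 had 1.44, 2.32 and 22.5 CPM in Ctrl.Mdr2-/- livers and changed by -5.64 ± 1.09 (adjusted p = 0.000264), and Cyp3a41a had 2.37, 4.95 and 41.8 CPM and changed by -4.27 ± 0.93 (adjusted p = 0.000781). For both, the highest Mdr2-/- library, replicate 6, and the lowest wild-type library, also numbered 6, overlapped. Cyp3a41b changed by -4.52 ± 0.87 (adjusted p = 0.000209), and the Cyp3a41 pair's sum by -4.29 ± 0.93.

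Cyp3a25 and Cyp3a59 also fell with loss of Mdr2 and by like amounts. Cyp3a25 had 351 CPM at the lowest, 473 at the median and 567 at the highest in Ctrl.Mdr2-/- livers, against 809, 1097 and 1565 CPM in Ctrl.Wild-type livers, with no overlap (log2 -1.24 ± 0.23, adjusted p = 0.00014). Cyp3a59 had 46.8, 57.4 and 72.9 CPM in Ctrl.Mdr2-/- livers, against 106, 135 and 182 CPM in Ctrl.Wild-type livers, also with no overlap (log2 -1.22 ± 0.22, adjusted p = 7.28e-05). Without the 3 libraries that stood apart all 6 calls held, with Cyp3a25 at -1.10 and Cyp3a59 at -1.12. Other settings shrank the change to as little as -0.755 for Cyp3a25 and -0.75 for Cyp3a59, and both calls held in all 36 alternatives. Cyp3a11 (-0.19 ± 0.27, adjusted p = 0.564) and Cyp3a13 (-0.15 ± 0.20, adjusted p = 0.546) did not pass, and both turned positive when counts were scaled by total library size (0.11 and 0.16). That scaling moved the median gene by 0.30 in this comparison.

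Between tumour-bearing livers, Cyp3a25 and Cyp3a59 were the 2 of 8 members that were lower in Mdr2-/- than in wild-type mice, and 0 were higher, where 11.1% of all tested genes passed, 4% lower and 7.13% higher. Cyp3a25 had 279, 420 and 737 CPM in CCA.Mdr2-/- livers, against 476, 874 and 1039 CPM in CCA.Wild-type livers, at the lowest, median and highest library, and the groups overlapped (log2 -0.86 ± 0.23, adjusted p = 0.0164). Cyp3a59 had 26.5, 38.3 and 68.7 CPM in CCA.Mdr2-/- livers, against 56.4, 89.6 and 128 CPM in CCA.Wild-type livers (log2 -1.09 ± 0.22, adjusted p = 0.00182). The Cyp3a25 call was lost without CCA.Mdr2-/- replicate 6 (-0.74, adjusted p = 0.0553) and without CCA.Wild-type replicate 4 (-0.77, adjusted p = 0.052). Cyp3a44 (-0.14 ± 0.66, adjusted p = 0.928), Cyp3a16 (0.64 ± 0.93, adjusted p = 0.732) Cyp3a41a (1.68 ± 0.84, adjusted p = 0.224), Cyp3a41b (1.61 ± 0.88, adjusted p = 0.27), Cyp3a11 (-0.27 ± 0.27, adjusted p = 0.594) and Cyp3a13 (-0.13 ± 0.20, adjusted p = 0.753) did not pass.

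Summed over the 8 genes, the family followed Cyp3a11. The sum had 2592 TPM at the lowest, 3371 at the median and 4919 at the highest in CCA.Mdr2-/- livers, against 3515, 6192 and 6972 TPM in Ctrl.Mdr2-/- livers, and the groups overlapped. It had 2959, 3949 and 4672 TPM in CCA.Wild-type livers, against 4992, 5698 and 7975 TPM in Ctrl.Wild-type livers, which did not overlap on this scale. In CPM these groups did overlap, with up to 11526 CPM in CCA.Wild-type and from 11040 CPM in Ctrl.Wild-type livers. In the fit on counts the sum changed by -0.78 ± 0.26 with tumour in Mdr2-/- livers and by -0.82 ± 0.26 in wild-type livers. For the sum of Cyp3a16, Cyp3a41a, Cyp3a41b and Cyp3a44, the same changes were 1.58 ± 0.80 and -4.80 ± 0.91. No p is given for the sums, since the genes were chosen together.

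Hepatocyte markers fell where the sum over all 8 genes was lower, and their part in the result was not tested. Of 18 hepatocyte markers, 14 fell and 1 rose with tumour in Mdr2-/- livers, and 9 fell and 0 rose in wild-type livers. Their summed level was 36272 to 67598 CPM in CCA.Mdr2-/-, 89206.5 to 105455 CPM in Ctrl.Mdr2-/-, 61604 to 103250 CPM in CCA.Wild-type and 109724 to 145322 CPM in Ctrl.Wild-type livers. Albumin (Alb), the main secreted hepatocyte protein, changed by -1.10 in Mdr2-/- and -0.78 in wild-type livers with tumour (adjusted p = 9.96e-05 and 0.00159). Alb averaged 28381, 60642, 48638 and 83414 CPM in CCA.Mdr2-/-, Ctrl.Mdr2-/-, CCA.Wild-type and Ctrl.Wild-type livers, and made up much of the marker sum. The next listed markers, Apoa1 and Ttr, moved less. Apoa1 averaged 4418, 4241, 7096 and 6500 CPM and Ttr 2086, 2918, 3368 and 3513 CPM in the same order. The summed Cyp3a level was 12.5 ± 3.39, 12.1 ± 4.41, 10.6 ± 3.36 and 12.04 ± 3.79% of the hepatocyte markers' sum in CCA.Mdr2-/-, Ctrl.Mdr2-/-, CCA.Wild-type and Ctrl.Wild-type livers (SD, n = 6 each). The 4 genes that were high in Ctrl.Wild-type livers were at 0.129 ± 0.110, 0.0217 ± 0.0244, 0.0407 ± 0.0402 and 0.785 ± 0.697% of that sum. The mean was 0.0118% in Ctrl.Mdr2-/- livers without replicate 6 and 0.0269% in CCA.Wild-type livers without replicate 1.

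Markers of other cells were followed too, and their part in the results was not tested either. Of 20 cholangiocyte markers, 12 rose and 0 fell with tumour in Mdr2-/- livers and 15 rose and 1 fell in wild-type livers. Their sum was 1454 to 4617 CPM in CCA.Mdr2-/-, 346 to 634 CPM in Ctrl.Mdr2-/-, 407 to 1758.4 CPM in CCA.Wild-type and 336 to 507 CPM in Ctrl.Wild-type livers. Leukocyte markers summed to 537 to 985, 435 to 872, 233 to 557 and 180 to 259 CPM in the same order, with 1 of 16 up and 2 down with tumour in Mdr2-/- and 7 up and 0 down in wild-type livers. Stellate cell and fibroblast markers summed to 1088 to 1511, 934 to 1515, 774 to 1246 and 553 to 667 CPM, with 5 of 14 up and 1 down in Mdr2-/- and 9 up and 0 down in wild-type livers. Endothelial markers summed to 433 to 640, 609 to 785, 662 to 930 and 744 to 859 CPM, with 0 of 12 up and 4 down in Mdr2-/- and 1 up and 0 down in wild-type livers. Of 10 enterocyte markers, listed because Cyp3a13 is an intestinal gene too, 4 were tested, of which 1 rose in Mdr2-/- and 2 in wild-type livers with tumour, with sums of 82.9 to 123, 26.9 to 57.4, 74.7 to 306 and 48.6 to 138 CPM. Fabp2 made up most of these sums, averaging 96.3, 36.8, 185 and 94.4 CPM in CCA.Mdr2-/-, Ctrl.Mdr2-/-, CCA.Wild-type and Ctrl.Wild-type livers. Cdx2, which defines intestinal epithelium, was at no more than 0.0321 CPM in any library. With loss of Mdr2 in control livers, 18 of 20 cholangiocyte markers rose and 1 fell, and 2 of 18 hepatocyte markers rose and 6 fell. In tumour-bearing livers 13 of the cholangiocyte markers were higher and 0 lower in Mdr2-/- than in wild-type mice, and 6 of the hepatocyte markers were lower and 0 higher.

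Female-biased liver genes outside the cluster were lower in the comparisons in which Cyp3a16, Cyp3a41a, Cyp3a41b and Cyp3a44 were lower, but not only there. Many were also lower between tumour-bearing livers, and some with tumour in Mdr2-/- livers, where none of these Cyp3a genes passed. Of 27 such genes, 0 rose and 24 fell with loss of Mdr2 in control livers (median log2 fold change -1.81, all tested genes 0.03), and 0 rose and 20 fell with tumour in wild-type livers (median -1.29, all genes 0.03). With tumour in Mdr2-/- livers 9 fell (median -0.58), and between tumour-bearing livers 19 were lower in Mdr2-/- (median -1.29). Of all tested genes, 24.3, 11.5, 17 and 4% were lower in these comparisons, in the order given. Cyp2b9, a female-predominant P450, averaged 104 CPM in CCA.Mdr2-/-, 236 CPM in Ctrl.Mdr2-/-, 267 CPM in CCA.Wild-type and 571 CPM in Ctrl.Wild-type livers. It fell with tumour in both genotypes, by 1.19 in Mdr2-/- and by 1.10 in wild-type livers on the log2 scale (adjusted p = 0.00315 and 0.00458). Cyp2b13 fell by 1.78 with tumour in Mdr2-/- livers (adjusted p = 0.00379) and was at -0.17 in wild-type livers (adjusted p = 0.799). For the difference of tumour effects, Mdr2-/- minus wild-type, 8 of the 27 were higher and 1 was lower.

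**Figure D4:**
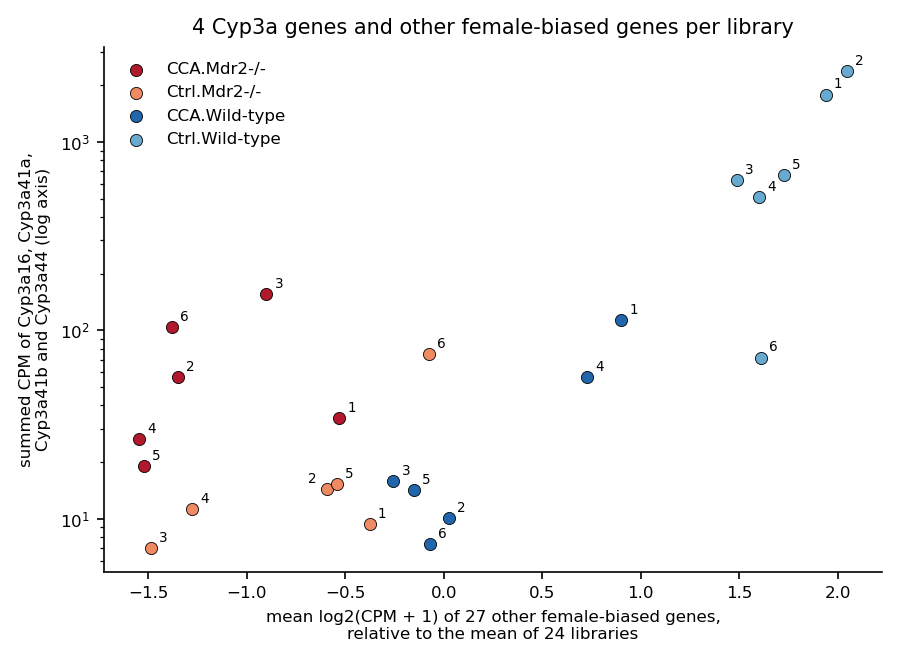
Summed CPM of Cyp3a16, Cyp3a41a, Cyp3a41b and Cyp3a44 on a log axis against the mean log2(CPM + 1) of the 27 female-biased genes outside the cluster, relative to the mean of all libraries, 1 numbered point per library. Ctrl.Wild-type replicate 6 had a summed level of 71.7 CPM, against 509 to 2382 CPM in the other 5 libraries of its group, while its mean over the 27 genes, 1.61, lay within its group's range of 1.49 to 2.05.

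In Ctrl.Wild-type replicate 6 the 4 Cyp3a genes were far lower than in the other 5 libraries of its group, and Cyp3a11 was at its highest there, at 19110.5 CPM. Of the 27 female-biased genes, 8 were below all the other 5 libraries in this replicate, 5 were above all of them and 14 lay between. Its Xist level was 2325 CPM and its highest Y-linked gene was at 0.545 CPM, both within the range of the 24 libraries, though Xist was above the other 5 of its group, at 1034 to 1735 CPM. Its hepatocyte markers summed to 109724 CPM, against 119342 to 145322 CPM in the other 5, and its acute phase genes to 16974 CPM, against 22975 to 27572 CPM. Its 4-gene sum of 71.7 CPM was below that of 4 of the 18 libraries in the other groups, whose highest was 156 CPM. Among CCA.Wild-type livers the 4-gene sum was highest in replicate 1, at 113 CPM, and replicate 4, at 56.5 CPM.

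Male-biased genes moved in both directions. Of 27 tested, 8 rose and 12 fell with loss of Mdr2 in control livers, and 6 rose and 11 fell with tumour in wild-type livers. Cyp4a12a, a male-predominant P450, ran from 32.2 to 134 CPM in CCA.Mdr2-/-, from 106 to 349 CPM in CCA.Wild-type and from 0.775 to 4.58 CPM in Ctrl.Wild-type livers. In Ctrl.Mdr2-/- livers it was at 91.6 CPM in replicate 3 and at 2.00 to 12.05 CPM in the other 5 libraries. It rose by 6.08 ± 0.80 on the log2 scale with tumour in wild-type livers (adjusted p = 8.07e-06). Mup20, a male urinary pheromone protein, ran from 905 to 2879.2 CPM in CCA.Mdr2-/-, 195 to 3906 CPM in Ctrl.Mdr2-/-, 634 to 2669 CPM in CCA.Wild-type and 50.1 to 119 CPM in Ctrl.Wild-type livers. It rose with tumour in wild-type livers and with loss of Mdr2 in control livers (4.29 ± 0.54 and 4.34 ± 0.54, adjusted p = 2.27e-06 and 7.89e-07), and neither pair of groups overlapped. Elovl3, a fatty acid elongase listed with them, fell by 1.67 and by 2.16 in these comparisons (adjusted p = 0.000676 and 2.4e-05).

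The regulators and partners of the family fell in part. Of 21 tested receptors, factors and electron donors, 8 fell and 0 rose with tumour in Mdr2-/- livers, and 4 fell and 1 rose in wild-type livers. Among all tested genes, 17% were lower and 17.9% higher in the first comparison, and 11.5% lower and 16.9% higher in the second. PXR (Nr1i2) averaged 60.7 CPM in CCA.Mdr2-/- and 91.4 CPM in Ctrl.Mdr2-/- livers (log2 -0.59 ± 0.18, adjusted p = 0.0154), against 68.4 CPM in CCA.Wild-type and 81.1 CPM in Ctrl.Wild-type livers (-0.25, adjusted p = 0.325). CAR (Nr1i3) averaged 21.1, 36.0, 34.4 and 50.8 CPM in the same order and fell with tumour in both genotypes (log2 -0.77 and -0.56, adjusted p = 0.00848 and 0.0479). Por, which passes electrons to all of these enzymes, averaged 235, 342, 325 and 432 CPM and passed in none of the comparisons. With loss of Mdr2, 2 of the 21 rose and 6 fell in control livers and 0 rose and 2 fell in tumour-bearing livers. Among all tested genes, 24.3% were lower and 26.2% higher in control livers, and 4% lower and 7.13% higher in tumour-bearing livers.

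Other genes induced through PXR and CAR fell widely with tumour in Mdr2-/- livers. Of 28, 21 fell and 0 rose there (median -0.91, all genes 0.04), against 11 that fell and 4 that rose in wild-type livers (median -0.28, all genes 0.03). Hepatocyte markers fell there as well, with medians of -0.78 in Mdr2-/- and -0.41 in wild-type livers with tumour. Cyp2b10, the classical CAR target, averaged 10.2, 44.2, 47.3 and 117 CPM in CCA.Mdr2-/-, Ctrl.Mdr2-/-, CCA.Wild-type and Ctrl.Wild-type livers and changed by -2.11 and -1.30 with tumour in Mdr2-/- and wild-type livers (adjusted p = 0.000239 and 0.00773). Cyp2c55 averaged 4.89, 14.4, 6.74 and 4.57 CPM, fell by 1.56 with tumour in Mdr2-/- livers (adjusted p = 0.0063) and rose by 1.64 with loss of Mdr2 in control livers (adjusted p = 0.0021). Among these targets 8 rose and 9 fell with loss of Mdr2 in control livers, and 0 rose and 11 fell in tumour-bearing livers.

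Lists for the liver's zones, age and bile acid handling gave further context for the members. Of 20 pericentral genes, named for the zone in which Cyp3a11 is highest, 2 rose and 7 fell with tumour in Mdr2-/- livers and 1 rose and 12 fell in wild-type livers. Of 20 periportal genes, 1 rose and 12 fell in Mdr2-/- and 2 rose and 8 fell in wild-type livers. Of 31 genes of bile acid synthesis and export, 1 rose and 13 fell in Mdr2-/- and 0 rose and 15 fell in wild-type livers, among them the bile salt export pump Abcb11 (-1.02 and -1.36, adjusted p = 0.00147 and 5.94e-05). Cyp7a1, the rate-limiting enzyme of bile acid synthesis, was at 0.05 in Mdr2-/- and -0.72 in wild-type livers with tumour (adjusted p = 0.944 and 0.272), and Cyp8b1, which makes cholic acid, at 0.86 and 0.00 (adjusted p = 0.0913 and 0.998). Of 14 fetal and neonatal genes, listed because of Cyp3a16, 6 rose and 1 fell in Mdr2-/- and 3 rose and 3 fell in wild-type livers. Of 20 acute phase genes, whose induction is known to go with lower P450 levels, 1 rose and 10 fell in Mdr2-/- and 7 rose and 8 fell in wild-type livers.

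The genes most like each member over the 24 libraries were found by the root mean square difference of centred log2(CPM + 1) profiles. For Cyp3a25 the closest outside the cluster were Pgrmc1, at a difference of 0.190, Adh7 at 0.223 and Gm27463 at 0.230, while the Cyp3a25 profile itself had a root mean square of 0.674. For Cyp3a13 they were Nr1i2 at 0.223, Wdr36 at 0.223 and Heatr1 at 0.237, beside 0.369 for its own profile. For Cyp3a11 they were Ugt1a9 at 0.322, Gm5524 at 0.344 and Rdh10 at 0.358, beside 0.620. For the Cyp3a41 pair even the closest, A1bg at 1.53, Cyp2c40 at 1.54 and Cyp7b1 at 1.55, were far off beside 2.17 for its own profile. Within the family Cyp3a25 and Cyp3a59 were at 0.229 and Cyp3a16 and Cyp3a44 at 0.703, while Cyp3a11 and Cyp3a16 were at 2.50.

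**Figure D5:**
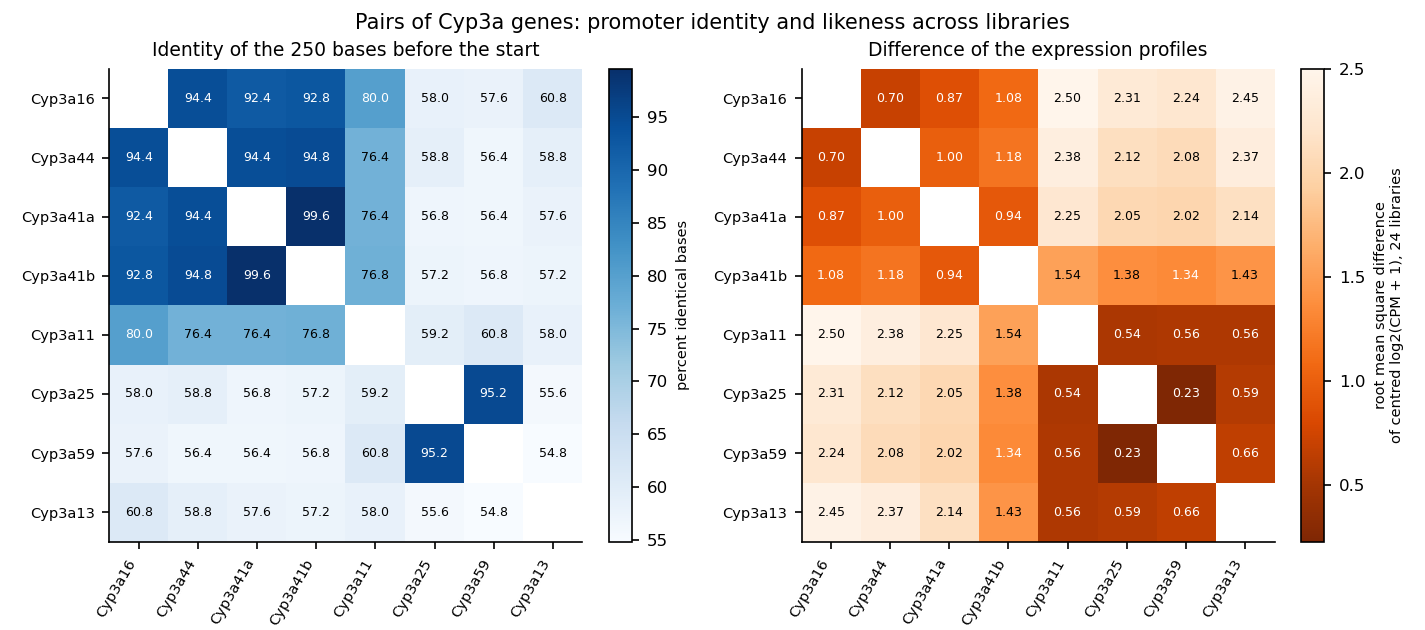
For each pair of the 8 Cyp3a genes, percent identity of the 250 bases before the start on the left, and root mean square difference of the centred log2(CPM + 1) profiles over 24 libraries on the right, where darker cells are more alike. Cyp3a25 and Cyp3a59, with promoters 95.2% identical, had the smallest difference, 0.229, and Cyp3a41a and Cyp3a41b, at 99.6%, had a difference of 0.940. Cyp3a41b had medians of 0.806, 0.309 and 0.273 CPM in CCA.Mdr2-/-, Ctrl.Mdr2-/- and CCA.Wild-type livers. At such levels the added 1 flattens its profile, so 0.940 does not show that the pair is expressed differently.

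Levels of the nearest genes were followed as well. The pseudogene Cyp3a63-ps, between Cyp3a41b and Cyp3a41a, averaged 0.584, 0.235, 0.231 and 5.30 CPM in CCA.Mdr2-/-, Ctrl.Mdr2-/-, CCA.Wild-type and Ctrl.Wild-type livers and fell with tumour in wild-type livers (-4.52 ± 0.66, adjusted p = 1.96e-05) and with loss of Mdr2 in control livers (-4.46 ± 0.66, adjusted p = 7.62e-06), with no overlap in either. In Ctrl.Mdr2-/- livers 1 library, replicate 6, was at 0.878 CPM. Outside the cluster, Zscan25, Zfp655 and Zkscan5 on one side and Rnf6, Cdk8 and Wasf3 on the other were the nearest tested genes. In wild-type livers with tumour, Cdk8 fell by 0.42 (adjusted p = 0.0137) and Wasf3, at a mean of 0.927 CPM, by 1.20 (adjusted p = 0.0056), and the other 4 did not pass. With loss of Mdr2 in control livers, Zscan25 rose by 0.54 (adjusted p = 0.0372), and Zfp655 fell by 0.53 (adjusted p = 0.00873), Cdk8 by 0.35 (adjusted p = 0.0252) and Wasf3 by 1.20 (adjusted p = 0.00262).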

How the data were processed

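Ribosomal RNA was removed from total liver RNA with a kit named for bacteria, and libraries were sequenced as paired reads of 150 bases on a NovaSeq, per the labels' protocols. The authors deposited raw counts per gene and a TPM table for 24 libraries. The genome was mm39 and DESeq2 was used, per the submitters' processing notes. The aligner, counter, annotation and strand setting were not given in the sources used here.

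Groups were taken from the treatment label. The deposited counts were fitted with edgeR 4.0.16 (R 4.3.3): TMM scaling, filterByExpr with a minimum count of 10, 1 mean per group over all 24 libraries, a robust quasi-likelihood fit, and Benjamini-Hochberg adjustment over the 17216 genes kept, called at an adjusted p under 0.05. The genes kept held 99.82 to 99.95% of counts. The biological coefficient of variation was 0.272. A sum replaced its members' counts by 1 gene in the same model. Levels are given as deposited TPM or as CPM after TMM. The deposited TPM were also tested with limma 3.58.1 on log2(TPM + 1) and log2(TPM + 0.1), and the counts with DESeq2 1.42.0. Other alternatives were scaling by upper quartile or total library size, no or a stricter filter, only the groups compared, and leaving out libraries. Each of 60 replicate pairs differed by more than sampling noise. In counts simulated for the Mdr2-/- tumour comparison, the test recovered 67 of 100 genes with a 2-fold change and 92 of 100 with a 4-fold change among 16111 tested, with 8 false calls.

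The members and gene lists were chosen with earlier results of these data known. The genes named are all members, Abcb4, the first genes of each list, the 3 nearest profiles among 10191 genes of at least 5 CPM and the nearest tested genes on each side of the cluster. The values of 1 listed gene are not reported here. Promoters came from RefSeq (GRCm38.p6) and open reading frames, the longest per gene, from GENCODE M21 transcripts. They were aligned with Biopython 1.88, and all 8 members matched.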

Additional observations from a re-analysis of the deposited data

Results flagged for a closer look

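In all, 4 values lay apart from the other 5 libraries of their group by Dixon's criterion on the log2 scale, among 36 groups examined. Chance alone sets apart about 1 in 20 independent values. Those here are not independent, since most come from the same library and Cyp3a41a and Cyp3a41b can share reads. In Ctrl.Mdr2-/- replicate 6, Cyp3a16 had 22.5 CPM, against 2.53 CPM in the next library, Cyp3a41a had 41.8 CPM, against 5.85 CPM, and Cyp3a41b had 2.71 CPM, against 0.542 CPM. Cyp3a44, at 7.80 CPM the highest of its group there, did not stand apart. In Ctrl.Wild-type replicate 6, Cyp3a41a had 18.8 CPM, against 160 CPM in the next library.

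The effect of tumour differed between genotypes by edgeR's test of the difference itself for 4 members, all with a higher value in Mdr2-/- than in wild-type livers. The differences were 6.28 for Cyp3a16, 5.95 for Cyp3a41a, 6.14 for Cyp3a41b and 6.46 for Cyp3a44 on the log2 scale. Within Mdr2-/- livers none of the 4 passed, at changes of 0.70 to 1.91, and within wild-type livers all 4 fell. The 4 genes were already low in Ctrl.Mdr2-/- livers, at medians of 0.309 to 5.11 CPM, and the part of this in the difference was not tested.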

How the results depend on the processing

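No paired analysis was possible because the labels carry no replicate numbers, and the numbers printed here only name libraries. Of 1430 values of single members under alternatives, 1348 kept direction and side of the threshold, 22 lost the call, 16 gained it and 44, none of them called, changed sign. The 12 called values of Cyp3a16, Cyp3a41a, Cyp3a41b and Cyp3a44 held in all 426 alternatives run, though Cyp3a41b shrank to -2.73 (tumour, wild-type), -2.58 (Mdr2 loss, controls) and 3.31 (their difference) on log2(TPM + 1). Setting aside the 3 libraries was chosen after seeing the data.

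With tumour in Mdr2-/- livers, where 1 member passed (lower), 3 passed with total library size (2 higher, 1 lower), with either TPM scale and without the 3 libraries (1 higher, 2 lower each), 2 with no filter and without the 2 planned libraries (both lower), 2 with only the groups compared (1 higher, 1 lower), and 0 to 2 without single libraries. Between tumour-bearing livers 1 passed with only the groups compared and 1 to 2 without single libraries. Total library size moved the median gene by 0.24 with tumour in Mdr2-/- and by 0.30 in wild-type livers. It split all calls there into 5565 higher and 924 lower, against 3074 and 2921 with TMM, and into 5783 and 603, against 2915 and 1976. With it the Cyp3a11 and Cyp3a59 calls in wild-type livers were lost (adjusted p = 0.135 and 0.117).

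Changes of sign under total library size, log2(TPM + 1) and log2(TPM + 0.1) were 0.11, 0.21 and 0.21 for Cyp3a11 and 0.16, 0.35 and 0.36 for Cyp3a13 with Mdr2 loss in controls, and 0.12, 0.14 and 0.15 for Cyp3a13 and 0.18, 0.55 and 0.62 for Cyp3a44 in tumour-bearing livers. Cyp3a25 with tumour in Mdr2-/- livers was 0.10 with total library size and 0.00497 with upper quartiles. For the difference of tumour effects, Cyp3a11 was 0.019 with upper quartiles, Cyp3a13 -0.0479 with total library size, -0.0764 with no filter, -0.20 and -0.21 on TPM and -0.015 without the 3 libraries, Cyp3a25 -0.0797 without the 3, and Cyp3a59 -0.0626 and -0.0665 on TPM, -0.17 without the 2 and -0.27 without the 3. Without single libraries the ranges that crossed 0 were -0.0739 to 2.09 (Cyp3a16, tumour in Mdr2-/-), -0.24 to 0.0472 (Cyp3a13, Mdr2 loss in controls), -0.13 to 1.43 (Cyp3a16) and -0.40 to 0.67 (Cyp3a44) in tumour-bearing livers, and, for the difference, -0.30 to 0.0852 (Cyp3a11), -0.17 to 0.12 (Cyp3a13) and -0.0719 to 0.28 (Cyp3a59). The cause was not tested.

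Cyp3a41b had 2 to 793 counts a library, and 82.72% of its 150-base windows are also in Cyp3a41a.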
